A study of Mus musculus with 7 samples.

Results

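Growth hormone (GH) and insulin-like growth factor (IGF) axis genes were examined in kidneys of mice that lack the lamin B receptor (LBR), an inner nuclear membrane protein that anchors heterochromatin at the nuclear envelope. The 10 genes were listed by symbol, with no threshold on their values. They are the GH receptor Ghr, the ligand Igf1 and its receptor Igf1r, the binding protein genes Igfbp1, Igfbp2, Igfbp3, Igfbp4 and Igfbp5, and the feedback inhibitors Socs2 and Cish. All 10 were found among the 24328 gene symbols measured, and all 10 passed the filter of a mean of at least 5 normalized counts. The study set LBR-null mice, which carry the loss-of-function allele Lbric-J on both chromosomes (genotype Lbric-J/ic-J), against a WT littermate (Lbr+/+) to ask how loss of LBR alters gene expression. Both groups were C57BL/6J mice 4 weeks of age on standard chow. The right kidney was taken whole and polyadenylated RNA was sequenced. LBR-null mice 4001 and 4007 and WT mouse 4009 gave 2 libraries each, and LBR-null mouse 4002 gave 1 library. The mutation is present in every cell of the animal from conception, so an effect that starts in the kidney and an effect of other organs on the kidney cannot be told apart here.

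GH from the pituitary binds GHR on target cells, where the kinase JAK2 activates the transcription factor STAT5. STAT5 induces Igf1 as well as Socs2 and Cish, whose products shut the receptor off again. IGF1 acts through IGF1R on the AKT and mTOR pathways, which promote growth and hold FOXO transcription factors out of the nucleus. The IGF binding proteins hold IGF1 outside the cell and set how much of it reaches the receptor. Most circulating IGF1 comes from the liver, while the kidney makes IGF1 and several binding proteins for local use and takes part in clearing the hormones.

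The promoters of Igfbp1 and Cish are shown because they hold well known control sites of this axis, for FOXO and for STAT5. They come from RefSeq windows on GRCm38.p6 that run from 250 bases before to 50 bases after each start site. A window was found for 9 of the 10 genes, 11 windows in all, and Socs2 had none. The first sequence is chr11:7197537-7197786 on the plus strand, which ends at the Igfbp1 start site. Its capitals mark CAAAACAA and TTATTTTG, the inverted repeats of the insulin response sequence that FOXO factors are known to bind. The second is chr9:107296409-107296678 on the plus strand, which ends 20 bases past the Cish start site, and its capitals mark matches to the STAT5 motif TTCNNNGAA.
Igfbp1: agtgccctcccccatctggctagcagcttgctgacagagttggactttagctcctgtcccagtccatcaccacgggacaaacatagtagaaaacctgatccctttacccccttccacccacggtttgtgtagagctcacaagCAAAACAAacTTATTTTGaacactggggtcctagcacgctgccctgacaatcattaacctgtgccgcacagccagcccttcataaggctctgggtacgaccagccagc
Cish: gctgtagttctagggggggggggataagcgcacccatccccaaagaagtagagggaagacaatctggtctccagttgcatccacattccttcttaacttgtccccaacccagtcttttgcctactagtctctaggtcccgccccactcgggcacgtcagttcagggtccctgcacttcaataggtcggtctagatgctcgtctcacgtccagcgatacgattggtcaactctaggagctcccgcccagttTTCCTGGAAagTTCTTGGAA
Of 32851 windows, 8.30% held TTCNNNGAA, and 0.457% held it at least 2 times, as Cish does. CAAAACAA was found in 2.51% of windows and CAAAATAA, which reads TTATTTTG on the other strand, in 1.66%, with both strands searched. Both stood in 33 windows, and Igfbp1 was the 1 gene among the 10 with a window of this kind. The forkhead sequence GTAAACAA was found in 1.23% of windows and in no window of the 10 genes. These matches describe letters in a window and say nothing about binding in these kidneys.

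The values are normalized counts, which are read counts that the authors divided by a size factor for each library, and libraries were averaged within a mouse. The libraries held 20694016 to 26333284 reads on genes. The lowest read count of any of the 10 genes was 109, for Igfbp1 in a WT library, so counting error is small beside the differences between mice. Since the WT group is 1 mouse, only the LBR-null mice give a spread between animals. Lbr itself was at 322 to 471 normalized counts in the LBR-null mice, on both sides of the WT value of 398, and cannot serve as a check of genotype. Sex is not among the labels. Xist, which is transcribed from the inactive X chromosome, was high in mice 4001 (5785) and 4007 (9940) and low in mouse 4002 (65.3) and the WT mouse (35.5). The Y-linked Ddx3y was high in mouse 4002 (1516) and the WT mouse (1284) and low in mice 4001 (141) and 4007 (44.3). In mice 4001 and 4007 the genotype and a high Xist level therefore cannot be told apart, and mouse 4002 is the LBR-null mouse that resembles the WT mouse in both genes. Values of mouse 4002 are given for each of the 10 genes for that reason.

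Igfbp1 was higher in LBR-null kidneys by more than any other of the 10 genes, Socs2 and Igf1r were higher and Igf1 was lower, while the values of Ghr and Igfbp3 lay on both sides of the WT level. By the ratio of the mean over LBR-null mice to the WT value, Igfbp1 and Socs2 were at least 2-fold higher and Igf1 was at least 2-fold lower, and the other 7 genes lay within 2-fold. The background for these counts was 22.7% (2-fold higher) and 8.80% (2-fold lower) of the 21468 genes above 0 in either group. All 10 genes lay above a mean of 100 normalized counts, and among the 11831 genes at that level the shares were 4.79% and 5.07%. All 5 LBR-null libraries lay above both WT libraries for Igfbp1, Socs2, Cish and Igf1r, and below both for Igf1, Igfbp4 and Igfbp5. Of all genes above 0, 22.2% lay higher without overlap and 21.4% lower, and at a mean of at least 100 the shares were 22.2% and 29.3%, against which the counts of 4 of 10 and 3 of 10 are to be read. As the main test, limma on log2(normalized counts + 1) of the 4 mice called 0 of the 10 genes past the limits of adjusted p = 0.05 with 2-fold change, and it called 0.00% of the 17283 genes tested. At an unadjusted p under 0.05 it had Igfbp1, Socs2 and Igf1r higher and Igf1 lower, against 10.7% and 8.05% of all genes tested. On read counts recovered from the values, edgeR called 0 of the 10 genes (0.00579% of all genes called higher and 0.156% lower), and DESeq2 called Socs2 higher and Igf1 lower (3.08% and 3.33%). Calls rose over all genes when limma was fitted without mouse 4002 (3 of the 10 genes and 3.62% of all genes tested) or without mouse 4001 (0 and 6.76%). An exact permutation test of 3 mice against 1 cannot go below p = 0.25.

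**Figure D1:**
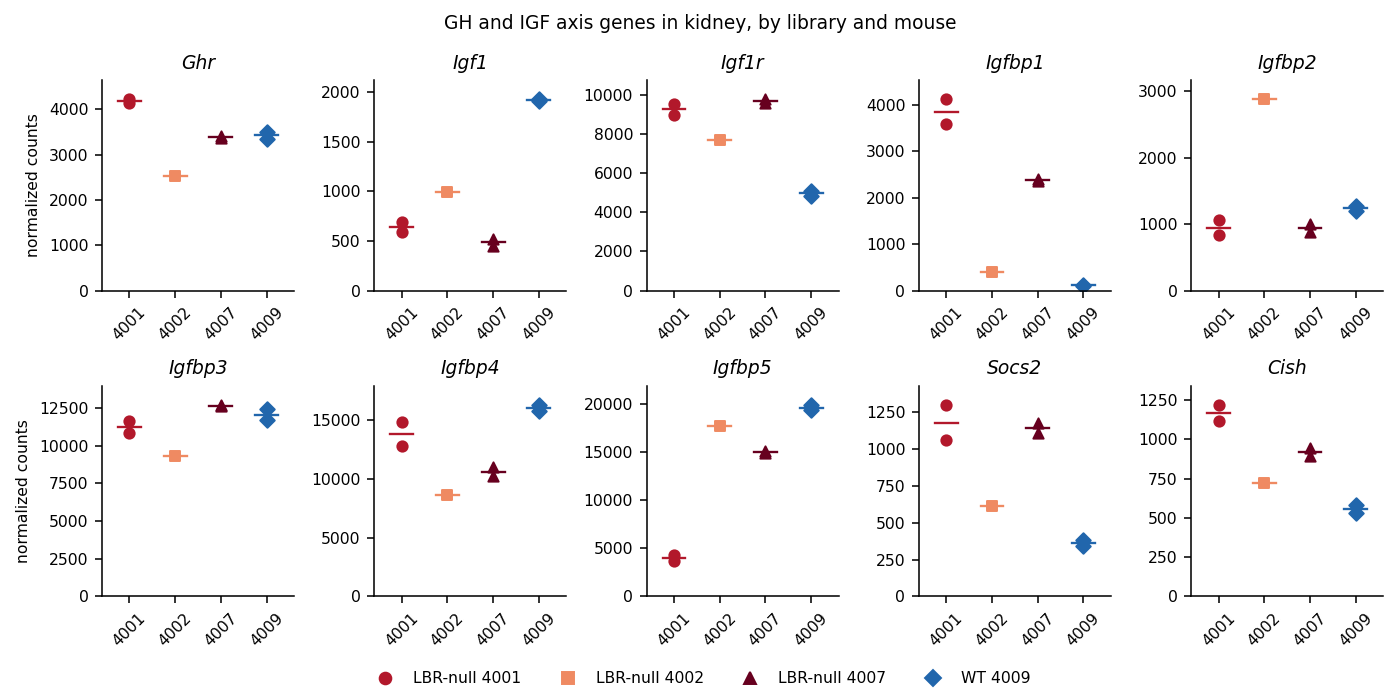
Normalized counts (vertical axes, each from 0) of the 10 genes in each library, with mice along the horizontal axis, a point for each library and a line at the mean of each mouse. The libraries of a mouse lie close together, Igfbp1 runs from 98.6 in a WT library to 4122 in mouse 4001, and mouse 4001 stands apart for Igfbp5 and mouse 4002 for Igfbp2.

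Ghr, the receptor through which GH acts, was at 4139 and 4219 normalized counts in mouse 4001, 2529 in mouse 4002, 3361 and 3409 in mouse 4007, and 3350 and 3495 in the WT libraries. The WT mouse lay between the LBR-null mice. The mean over LBR-null mice was 3364 ± 825 (SD, n = 3 mice) against 3422, a log2 fold change of −0.05 with a 95% interval from −0.86 to 0.75 (limma), so a difference of that size either way could not be told from none.

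Igf1, the ligand, was at 694 and 595 in mouse 4001, 990 in mouse 4002, 523 and 448 in mouse 4007, and 1925 and 1913 in the WT libraries. Every LBR-null library lay below both WT libraries, with mouse 4002 nearest to them. The LBR-null mean was 707 ± 258 (SD, n = 3) against 1919, which is 2.72-fold lower in LBR-null kidneys. The log2 fold change was −1.50 (standard error 0.40, 95% interval −2.48 to −0.53, unadjusted p = 0.00893, adjusted p = 0.130 by limma). DESeq2 gave −1.46 with an adjusted p of 0.0263. As a ratio to the WT level, mouse 4002 had 0.516, mouse 4001 had 0.336 and mouse 4007 had 0.253. Leaving out mouse 4002, which keeps only the LBR-null mice with high Xist, gave −1.78 (adjusted p = 0.0316 by limma), against −1.47 without mouse 4001 (adjusted p = 0.0641) and −1.26 without mouse 4007 (adjusted p = 0.343).

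Igf1r, the receptor tyrosine kinase for IGF1, was at 9519 and 8996 in mouse 4001, 7689 in mouse 4002, 9770 and 9588 in mouse 4007, and 4823 and 5099 in the WT libraries. The groups did not overlap, and the LBR-null mice lay closer to each other than to the WT mouse. The mean was 8875 ± 1049 (SD, n = 3) against 4961, a 1.79-fold difference. The log2 fold change was 0.83 (standard error 0.29, adjusted p = 0.202 by limma), with each mouse at 0.90, 0.63 and 0.96 for 4001, 4002 and 4007.

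**Figure D2:**
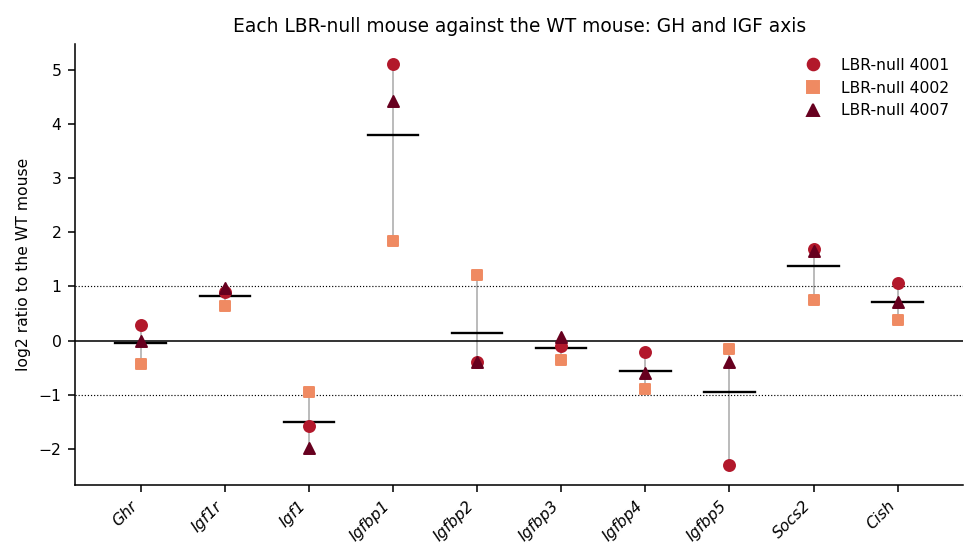
Log2 ratio of each LBR-null mouse to the WT mouse (vertical axis, with 1 normalized count added to both) for the 10 genes, with a symbol for each mouse and a black line at the mean of the 3 mice. Dotted lines mark 2-fold. Igf1 lies below 0 and Igf1r, Igfbp1, Socs2 and Cish lie above 0 in all 3 mice, while Ghr, Igfbp2 and Igfbp3 have mice on both sides.

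Igfbp1, whose product is a binding protein best known as a liver protein that rises in fasting and falls with insulin, was at 4122 and 3590 in mouse 4001, 400 in mouse 4002, 2395 and 2370 in mouse 4007, and 122 and 98.6 in the WT libraries. The LBR-null mice differed among themselves by far more than the libraries of a mouse did, and the lowest of them still lay above both WT libraries. Against the WT mouse the level was 34.95-fold higher in mouse 4001, 3.62-fold in mouse 4002 and 21.6-fold in mouse 4007. The mean of 2213 ± 1734 (SD, n = 3) was 20.1-fold above the WT value of 110. The log2 fold change was 3.79 (standard error 1.14, 95% interval 1.04 to 6.55, adjusted p = 0.156 by limma), and DESeq2 gave 4.29 with an adjusted p of 0.0668. Limma gave 4.77 without mouse 4002 (adjusted p = 0.00167), 3.13 without mouse 4001 (adjusted p = 0.0707) and 3.48 without mouse 4007 (adjusted p = 0.332). Of the 9 hepatocyte markers examined, 8 were 2-fold higher in LBR-null kidneys, 4 without mouse 4001, and 5 lay higher without overlap. The shares of all genes above 0 were 22.7% for 2-fold higher and 22.2% for higher without overlap. At a mean of at least 100, 4.79% of genes were 2-fold higher. No 2-fold share over all genes was computed without mouse 4001. No hepatocyte marker was at 0 in any library. The markers differed among themselves. Alb, the albumin gene, was 5.60-fold above WT in mouse 4001 but 1.43-fold in mouse 4002 and 0.988-fold in mouse 4007. Fga, a fibrinogen chain gene, was 11.6-fold above WT in mouse 4001, 2.30-fold in mouse 4002 and 7.47-fold in mouse 4007, and Fgg, another, 8.05-fold, 1.66-fold and 7.06-fold. Summed, they reached 24407 in mouse 4001, 9881 in mouse 4007, 8981 in mouse 4002 and no more than 5948 in the WT mouse. The part of hepatocyte markers in the Igfbp1 difference was not tested.

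Igfbp3, whose product carries most IGF1 in blood, lies next to Igfbp1. In mm9, Igfbp1 runs on chromosome 11 from 7097785 to 7102549 on the plus strand and Igfbp3 from 7106089 to 7113926 on the minus strand, with 3539 bases and no annotated gene between them. The neighbours had unlike values. Igfbp3 was at 11651 and 10835 in mouse 4001, 9357 in mouse 4002, 12623 and 12690 in mouse 4007, and 11721 and 12421 in the WT libraries, and the groups overlapped. Its log2 fold change was −0.13 with a 95% interval from −0.93 to 0.66 (limma).

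Igfbp2 and Igfbp5 are also neighbours, on chromosome 1 of mm9 from 72871077 to 72899048 on the plus strand and from 72904506 to 72921458 on the minus strand, with 5457 bases and no annotated gene between them. Both encode binding proteins that many tissues make for local use. Igfbp2 was at 1058 and 832 in mouse 4001, 2876 in mouse 4002, 883 and 994 in mouse 4007, and 1277 and 1199 in the WT libraries. Mouse 4002 lay above both WT libraries and the other LBR-null mice below them. The log2 fold change of 0.14 (95% interval −1.41 to 1.70, limma) was therefore smaller than the spread between LBR-null mice, and it was −0.39 without mouse 4002. Igfbp5 was at 3687 and 4312 in mouse 4001, 17746 in mouse 4002, 14920 and 15117 in mouse 4007, and 19910 and 19424 in the WT libraries. All LBR-null libraries lay below both WT libraries, but only mouse 4001 was far from them, at 0.203 of the WT level, against 0.902 in mouse 4002 and 0.764 in mouse 4007. The log2 fold change was −0.94 (standard error 0.82, adjusted p = 0.584 by limma).

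Igfbp4, whose product keeps IGF1 from its receptor until it is cleaved, was at 14842 and 12770 in mouse 4001, 8637 in mouse 4002, 10230 and 10982 in mouse 4007, and 15775 and 16266 in the WT libraries. Each LBR-null library lay below the WT libraries, in mouse 4001 by little. The mean was 11016 ± 2609 (SD, n = 3) against 16021, and the log2 fold change was −0.57 (standard error 0.37, adjusted p = 0.463 by limma).

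Levels of the binding protein genes were also compared per kilobase of exon, with lengths from GENCODE models on mm9, since the annotation behind the counts is not stated. Igfbp7, which binds IGF weakly and is made by vessels, took 74.0% of the summed level per kilobase of Igfbp1 to Igfbp7 in the WT mouse and 62.7% to 75.0% in the LBR-null mice. Igfbp4 followed with 11.8% in the WT mouse and 7.97% to 16.3% in the LBR-null mice, then Igfbp3 with 6.72% in the WT mouse and Igfbp5 with 5.70%. Igfbp1 was the least abundant of them in the WT mouse, with 0.126% of the sum. In the LBR-null mice it took 7.05% in mouse 4001, 0.571% in mouse 4002 and 4.34% in mouse 4007. In mice 4001 and 4007 it stood above Igfbp2 on this scale (1.43% and 1.41%), whereas in mouse 4002 Igfbp2 took 3.39%. The summed level itself was 57406 normalized counts per kilobase in the WT mouse and 39244 ± 5748 (SD, n = 3) in LBR-null mice. Igfbp7 alone stood at 42496 per kilobase in the WT mouse and 26555 ± 6796 (SD, n = 3) in LBR-null mice.

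**Figure D3:**
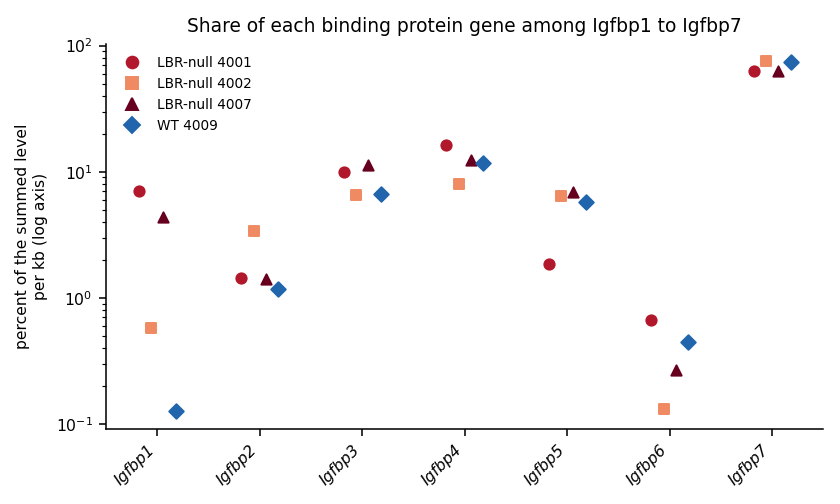
Share of each gene in the summed level per kilobase of Igfbp1 to Igfbp7 (vertical axis, percent, log scale), with a symbol for each mouse. Igfbp1 spans 0.126% in the WT mouse to 7.05% in mouse 4001, while Igfbp7 holds the largest share in all 4 mice.

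Socs2, the feedback inhibitor that restrains GH receptor signalling and body growth, was at 1293 and 1058 in mouse 4001, 612 in mouse 4002, 1174 and 1107 in mouse 4007, and 343 and 381 in the WT libraries. The groups did not overlap, and mouse 4002 lay nearest to the WT mouse. The mean of 976 ± 316 (SD, n = 3) was 2.70-fold above the WT value of 362, with 3.25-fold in mouse 4001, 1.69-fold in mouse 4002 and 3.15-fold in mouse 4007. On the log2 scale the difference was 1.37 (standard error 0.41, 95% interval 0.37 to 2.37, adjusted p = 0.158 by limma), and DESeq2 gave 1.41 with an adjusted p of 0.0322. Limma gave 1.68 without mouse 4002 (adjusted p = 0.0316), 1.21 without mouse 4001 (adjusted p = 0.0806) and 1.23 without mouse 4007 (adjusted p = 0.418).

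Cish, a STAT5 target that inhibits cytokine receptors and carries the paired STAT5 motifs printed above, was at 1217 and 1115 in mouse 4001, 722 in mouse 4002, 892 and 942 in mouse 4007, and 585 and 531 in the WT libraries. All LBR-null libraries lay above the WT libraries. The mean of 935 ± 223 (SD, n = 3) was 1.68-fold above 558, or 0.72 on the log2 scale (SE 0.32, adjusted p = 0.294 by limma). Noncoding antisense transcripts are annotated over parts of Cish and of Igf1, and whether the reads were counted by strand is not stated. Igf1 and the inhibitors, all known STAT5 targets in liver, thus lay on opposite sides of the WT level in every LBR-null library.

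Counted mouse by mouse, mouse 4001 had Igfbp1, Socs2 and Cish at least 2-fold above and Igf1 and Igfbp5 at least 2-fold below the WT mouse, and mouse 4007 had Igfbp1 and Socs2 above and Igf1 below. Mouse 4002 had Igfbp1 and Igfbp2 above and none below. Among genes with a mean of at least 100 normalized counts, 6.91% stood 2-fold above and 8.02% 2-fold below WT in mouse 4001, 2.98% and 4.62% in mouse 4002, and 5.17% and 7.40% in mouse 4007. With mouse 4002 alone, 5 of the 10 genes lay higher and 5 lower without overlap, where 46.6% and 39.7% of all genes above 0 did, with 1 library set against 2. The level of 100 was chosen after the values were seen.

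The wider pathway was read from a list of 87 further genes, of which 85 passed the filter. Limma called 0 of them. At an unadjusted p under 0.05 it had 17 higher and 8 lower, where 10.7% and 8.05% of all genes tested were, and DESeq2 called 10 higher and 5 lower, against 3.08% and 3.33% of all genes. By the 2-fold rule 17 were higher and 8 lower, against 22.7% and 8.80% of all genes above 0. Without overlap, 27 lay higher and 22 lower, against 22.2% and 21.4%. Among genes with a mean of at least 100 the 2-fold background was 4.79% and 5.07%. Pathway genes at that level were not counted apart. The median log2 fold change of the 85 genes was 0.06, against 0.01 over all genes tested.

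**Figure D4:**
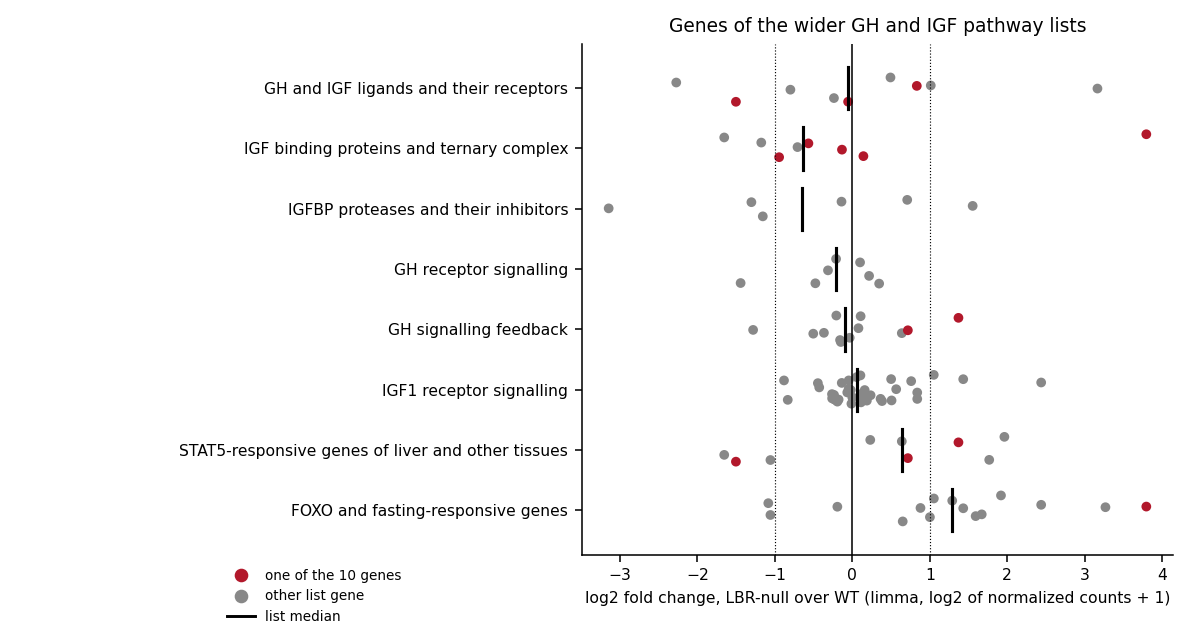
Log2 fold change of LBR-null over WT kidneys (horizontal axis, limma on log2 of normalized counts + 1) for the genes of 8 pathway lists, a point for each gene with the 10 genes in red, and a black line at the median of each list. Medians lie between −0.65 and 1.29, the latter for FOXO and fasting-responsive genes, and the point at 3.16 among the ligands is Prl, which was at 0 in both WT libraries.

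Among the ligands and receptors beside the 10 genes was the prolactin receptor gene Prlr. It was at 1960 and 1845 in mouse 4001, 2958 in mouse 4002, 1220 and 1195 in mouse 4007, and 8893 and 9420 in the WT libraries. All LBR-null libraries lay far below the WT libraries, mouse 4002 included. Its log2 fold change was −2.27 (standard error 0.48, adjusted p = 0.107 by limma), and DESeq2 gave an adjusted p of 0.000656. The insulin receptor gene Insr was at 4617 and 4961, 3367, and 4924 and 4836 in the 3 LBR-null mice against 2106 and 2142 in the WT libraries, a log2 fold change of 1.01 (adjusted p = 0.158 by limma). Insr and Igf1r, related receptors, thus lay above the WT libraries in all LBR-null libraries, whereas the third family member Insrr, a sensor of alkaline pH, lay below them with a log2 fold change of −0.80. Igf2r, which clears IGF2, had a log2 fold change of −0.24 with overlapping groups. Igf2 was at 646 and 615 in mouse 4001 and between 96.9 and 149 in every other library, WT included, so its mean over LBR-null mice rests on 1 mouse. Gh was at 0 in 4 libraries and at most 8.20, the value of 1 library of mouse 4007, and Prl was at 0 in both WT libraries and in 1 library of mouse 4001, with 6.88 to 15.1 in the other LBR-null libraries. These hormone genes are counted as 2-fold higher by the ratio alone, at levels of a few reads.

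Of the 3 other genes of the binding protein list, Igfals was 2-fold lower, Igfbp7 lay lower without overlap and Igfbp6 overlapped, and limma called 0. Igfals, the acid-labile subunit that stabilises IGF1 complexes in blood and is a STAT5 target in liver, was between 86.6 and 114 in the LBR-null libraries and at 350 and 300 in the WT libraries. Limma put the log2 fold change at −1.65 (standard error 0.33, adjusted p = 0.102 by limma, 0.000496 by DESeq2), with close agreement among the LBR-null mice (mean 103 ± 10.2, SD, n = 3). Igfbp7 was between 24731 and 41727 against 51597 and 51497, a log2 fold change of −0.71. Igfbp6 ranged from 67.1 to 302 in LBR-null libraries and overlapped the WT values of 283 and 282.

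Among proteases that cut binding proteins and their inhibitors, Pappa and Stc2 lay on opposite sides. Pappa, whose product frees IGF1 by cutting IGFBP4, was at 912 and 1187 in mouse 4001, 673 in mouse 4002, 644 and 580 in mouse 4007, and 247 and 267 in the WT libraries. On the log2 scale the difference was 1.55 (standard error 0.36, adjusted p = 0.114 by limma, 0.00641 by DESeq2). Stc2, an inhibitor of PAPPA, was between 85.2 and 145 against 286 and 257, a log2 fold change of −1.16 (adjusted p = 0.156 by limma). Its relative Stc1 overlapped between groups with a log2 fold change of −0.14, and Pappa2 had 0.71 without overlap. The protease genes Adam12 and Htra1 were lower in all LBR-null libraries. Adam12 was between 49.4 and 121 against 676 and 724, the largest difference of the list with −3.14 on the log2 scale (SE 0.48, adjusted p = 0.0875 by limma, 1.26e-07 by DESeq2). Htra1 had −1.30, at 1032 in mouse 4002 against 2235 and 2202. In this list of 6 genes 3 were 2-fold lower and 1 was 2-fold higher, against 8.80% and 22.7% of all genes above 0. At a mean of at least 100 those shares were 5.07% and 4.79%.

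In the pathway from the GH receptor, Jak2 had a log2 fold change of 0.35, Stat5b of 0.10 and Stat5a of −0.31, none past 2-fold. Of the other feedback inhibitors, Socs3 was between 132 and 227 against 96.1 and 115, a log2 fold change of 0.64. Socs1 was between 5.32 and 30.1 against 27.6 and 48.9, with overlap between groups. Its mean was 2-fold lower, at 0.476 of the WT level (log2 fold change −1.28, adjusted p = 0.483 by limma). The phosphatase gene Ptpn6 lay lower without overlap at −0.50.

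Genes that STAT5 is known to regulate lay on both sides. Pim1, a kinase gene induced by STAT5, was at 894 and 920 in mouse 4001, 708 in mouse 4002, 988 and 1070 in mouse 4007, and 247 and 263 in the WT libraries, a log2 fold change of 1.77 (adjusted p = 0.0906 by limma, 8.18e-05 by DESeq2). Bcl6, a repressor that STAT5 lowers in liver, was at 216 and 202, 651, and 362 and 377 in the 3 LBR-null mice against 769 and 770, a log2 fold change of −1.06. Onecut1 was between 3.65 and 15.97 against 0.787 and 1.81. Of the 6 genes of this list beside Igf1, Socs2 and Cish, 2 were 2-fold higher and 1, Igfals, was 2-fold lower. The background was 22.7% and 8.80% of all genes above 0, and 4.79% and 5.07% at a mean of at least 100.

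Downstream of IGF1R, the largest difference among 38 signalling genes was that of Irs2, an adaptor of the insulin and IGF1 receptors. It was at 586 and 1066 in mouse 4001, 190 in mouse 4002, 492 and 573 in mouse 4007, and 68.5 and 91.4 in the WT libraries. Its log2 fold change was 2.44 (standard error 0.75, adjusted p = 0.162 by limma, 0.00357 by DESeq2), and the order of mice was that of Igfbp1. Foxo3 ranged from 324 in mouse 4002 to 1462 in mouse 4001 against 248 and 191, and Tsc1, a brake on mTOR, was between 1603 and 2148 against 918 and 875. Those 3 genes were 2-fold higher and none of the 38 was 2-fold lower, against 22.7% and 8.80% of all genes above 0. At a mean of at least 100 the shares were 4.79% and 5.07%. Without overlap but within 2-fold, Irs1, Eif4ebp1, Rictor, Foxo4 and Pik3ca were higher, with log2 fold changes from 0.50 to 0.84, and Mtor (−0.83) and Pik3r3 (−0.88) were lower. The median of the list was 0.06.

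The pathway lists were chosen with earlier results of these data known, so their ranking is a description only. FOXO and fasting-responsive genes were the list with the highest median, 1.29 with Igfbp1 and 1.17 over the 14 genes without it. Of these 14 genes, 9 were 2-fold higher, Sesn3 was 2-fold lower and 4 lay within 2-fold, and 11 lay higher and 2 lower without overlap. The background was 22.7% of all genes above 0 (4.79% at a mean of at least 100) for 2-fold higher, and 22.2% for higher without overlap. DESeq2 called 7 of the 14 higher and 0 lower, against 3.08% and 3.33% of all genes, and limma called 0. Pdk4, the kinase that shuts pyruvate oxidation down in fasting, was at 7355 and 7680 in mouse 4001, 1329 in mouse 4002, 4568 and 4487 in mouse 4007, and 386 and 353 in the WT libraries. Limma put the log2 fold change at 3.27 (standard error 0.86, adjusted p = 0.128 by limma, 7.71e-05 by DESeq2). Pck1, which encodes the gluconeogenic enzyme of kidney and liver, was at 188628 and 187779, 87425, and 98522 and 100733 in mice 4001, 4002 and 4007 against 39215 and 39020. G6pc, the last step of glucose release, was at 16968 and 16593, 3771, and 9562 and 10017 against 3504 and 3471, so in mouse 4002 it was near the WT level. Sesn1, a stress-induced inhibitor of mTOR, was at 3773 and 3700, 1342, and 3275 and 3095 against 679 and 652. The ubiquitin ligase gene Fbxo32 (log2 fold change 1.67), the mTOR inhibitor Ddit4 (1.43), the transcription factor Klf15 (1.05) and the cyclin gene Ccng2 (2.05-fold) were also 2-fold higher by the mean. In mouse 4002 the ratio to WT was 2.16 for Fbxo32, 1.89 for Ddit4 and 1.80 for Klf15. Ccng2 was at 810 in mouse 4002 against 502 and 510 in the WT libraries, so it lay within 2-fold there, as Ddit4 and Klf15 did. Cdkn1b (0.88) and Sirt1 (0.65) lay higher without overlap. The transcriptional repressor Bcl6 (−1.06), with Sesn3, lay lower without overlap. The ubiquitin ligase gene Trim63, named after its values were seen, was at 2.74, 0.282 and 0.856 times the WT level in mice 4001, 4002 and 4007 (log2 fold change −0.19). Mouse by mouse, 11 of the 14 were 2-fold higher in mouse 4001, 5 in mouse 4002 and 7 in mouse 4007. Several of these genes also respond to glucocorticoids, so the list does not stand for FOXO alone.

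**Figure D5:**
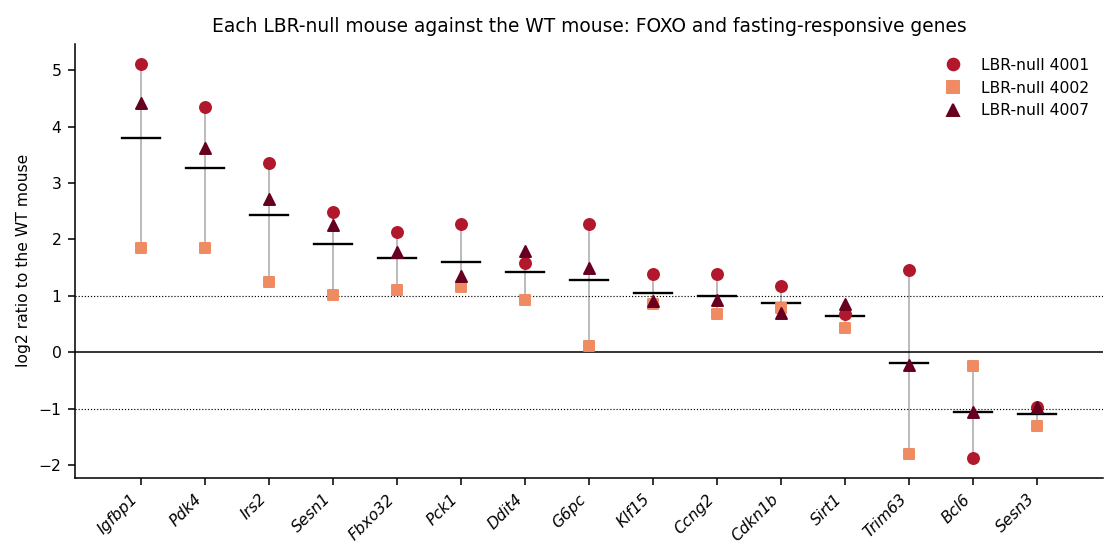
Log2 ratio of each LBR-null mouse to the WT mouse (vertical axis, 1 normalized count added) for the 15 FOXO and fasting-responsive genes, ordered by the mean of the 3 mice (black line), with dotted lines at 2-fold. Igfbp1 leads with ratios of 5.11, 1.85 and 4.42 in mice 4001, 4002 and 4007, and 12 of the 15 genes lie above 0 in all 3 mice.

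Fga, Gata6, Tor1aip1 and Pkp2 were among the genes outside the pathway lists whose pattern was most like that of Igfbp1 over the 7 libraries, with Pearson r of 0.997 to 0.998 on log2(normalized counts + 1). Fga, a fibrinogen chain gene and one of the hepatocyte markers, was at 6377 and 5870 in mouse 4001, 1217 in mouse 4002, 3923 and 3969 in mouse 4007, and 514 and 543 in the WT libraries. The genes named were picked for the highest r among 12975 genes, of which 542 had an r above 0.95. The points share libraries and mice. Among the 10 genes, Socs2 (r = 0.986), Cish (0.976) and Igf1r (0.953) tracked Igfbp1 over the libraries and Igf1 ran against it (−0.936).

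Some markers of kidney cell types moved with the group as well. Their counts are to be read against 22.7% (2-fold higher) and 8.80% (2-fold lower) of all genes above 0. Higher without overlap lay 22.2%. At a mean of at least 100 the 2-fold shares were 4.79% and 5.07%. The summed level of 8 proximal tubule markers was 66992 to 88161 in LBR-null libraries and 138314 to 140513 in WT libraries, with 5 markers 2-fold lower but Slc5a12 2-fold higher. The 6 fibroblast markers summed to 14754 to 28950 against 37878 to 38818, with 3 of them 2-fold lower and 2, Dcn and Lum, 2-fold higher (0 without mouse 4001). The 6 proliferation markers summed to 176 to 382 against 2125 to 2130, and all 6 were 2-fold lower. The 5 smooth muscle and mesangium markers summed to 6264 to 8944 against 13156 to 13453, the 6 macrophage markers to 2029 to 2396 against 3245 to 3246, and the 6 endothelial markers to 13702 to 17541 against 18041 to 18091. The 6 adrenal cortex markers summed higher, to 180 to 254 against 124 to 144, with 4 of them 2-fold higher. Of these 4, Cyp11b1 was at 0 in all but 1 library, and Hsd3b1 and Cyp21a1 had between 0 and 2.71 normalized counts in the WT libraries, so those ratios are against values near 0. Adipocyte markers summed to 5055 to 8669 against 5409 to 5461, with overlap, and 3 of 5 were 2-fold lower. Sums also overlapped between groups for thick ascending limb and distal tubule markers (68170 to 160046 against 86136 to 87664) and for collecting duct markers (28029 to 49297 against 30786 to 31209). Podocyte markers summed to 8306 in mouse 4001, 15286 and 16692 in mice 4002 and 4007 and 19926 in the WT mouse, and skeletal muscle markers to 835 in mouse 4001 against 92.9, 98.2 and 64.8 in mice 4002, 4007 and the WT mouse. The 8 neutrophil markers summed to 382 to 2469 against 76.9 to 83.5, all 8 were 2-fold higher, also without mouse 4001, and 6 lay higher without overlap. Of these 8, Camp, Mpo and Retnlg were at 0 in 1 WT library. Mouse 4001 thus stood apart in podocyte and muscle markers as it did in Igfbp5 and Igf2. In whole kidney RNA, fewer cells of a type and less RNA per cell cannot be told apart, and the part of these markers in the results on the 10 genes was not tested.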

How the data were processed

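Kidney RNA-seq values were used for 3 LBR-null mice and 1 WT mouse in 7 libraries. Alignment to mm9 by the authors used STAR 2.6.0. The authors divided gene counts by DESeq2 1.25.1 size factors and deposited the resulting signal (normalized counts) per symbol. The counting program and annotation are not given in the sources used here. Each value was a whole multiple of 1 read within 0.01 read (100% of values), so reads were recovered. The 10 genes and the pathway and marker lists were chosen with earlier results of these data known. Libraries were averaged per mouse. limma 3.58.1 (R 4.3.3, eBayes with trend, log2(value + 1), mean at least 5, Benjamini-Hochberg over 17283 genes) was the main test, with residual df = 2, all from the LBR-null mice, whose spread was taken to hold for the WT mouse too. Libraries of 1 mouse are not separate animals. Log2 fold changes on this scale understate changes of low genes. DESeq2 1.42.0 and edgeR's quasi-likelihood test (4.0.16) on reads summed per mouse, other pseudocounts, filters and scalings, and leaving out mice or libraries were alternatives. Named pathway genes were those 2-fold changed, or without overlap and past 0.5 on the log2 scale, plus a short list of ligands, receptors, binding proteins and signalling genes. The genes most like Igfbp1 were sought at a mean of at least 50. Some genes that these rules name are not reported here. Gene models were GENCODE on mm9, and promoters were RefSeq windows on GRCm38.p6.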

Additional observations from a re-analysis of the deposited data

Results flagged for a closer look

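Over the 5 LBR-null libraries, 4 of 57 genes examined had 1 library well away from the rest. Chance alone gives about 1 in 20. Libraries of a mouse are not independent, and 3 of the 4 flags are the 1 library of mouse 4002. Igfbp2 was at 2876 in mouse 4002, against 832 to 1058 in the other LBR-null libraries. Insr was at 3367 in mouse 4002, against 4617 to 4961. Sesn1 was at 1342 in mouse 4002, against 3095 to 3773. Gh was at 8.20 in library 2 of mouse 4007, against 0 to 0.887.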

How the results depend on the processing

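The 10 log2 fold changes kept their direction in every alternative run, except those of Ghr, at 0.14 without mouse 4002 and 0.14 with a replicate block, and of Igfbp2, at −0.39 and −0.40 in the same fits. With a mouse or library left out, Ghr ranged from −0.23 to 0.14 and Igfbp2 from −0.39 to 0.41. Limma called 0 of the 10 genes and 0 of the other pathway genes with all mice. The calls were 2 and 15 with DESeq2. Leaving out a mouse or library gave 0 to 3 calls among the 10 genes and 0 to 11 among the other pathway genes, with the upper values without mouse 4002 (3 and 10, with 3.62% of all genes tested called) and without mouse 4001 (0 and 11, with 6.76%), against 0.00% with none left out. Rep numbers in the labels number libraries of a mouse, and same-numbered libraries did not deviate together (correlations of −0.04, 0.00 and −0.05 across genes), so they pair nothing. The fit with them as a replicate block, the mouse as a random effect and no mouse 4002 called 3 and 21, and 7.60% of all genes tested. Genes 2-fold lower among the 10 numbered 1 to 2 with a mouse or library left out (2 without mouse 4002), 2-fold higher 2 to 2, higher without overlap 4 to 4 and lower 3 to 4. For the other pathway genes these ranges were 12 to 19 genes 2-fold higher, 6 to 9 lower, 28 to 32 higher without overlap and 23 to 32 lower, and for the FOXO-responsive genes 6 to 9, 0 to 1, 11 to 11 and 2 to 2. No share over all genes was computed beside these ranges. With fewer libraries, a lack of overlap comes more easily for any gene. With mouse 4002 alone, 0 of the 10 genes were 2-fold lower and 5 lower without overlap, 9 other pathway genes were 2-fold higher and 41 lower without overlap, and 5 FOXO-responsive genes were 2-fold higher and 2 lower. Of all genes above 0, 16.9% were then 2-fold higher, 11.3% 2-fold lower and 39.7% lower without overlap. That comparison, the marker counts without mouse 4001 and the shares at a mean of 100 were chosen after seeing the data. The causes were not tested. With 1 WT mouse, the number of mice limits all these results. Depth also limits those on genes at a few reads, such as Gh, Prl and Onecut1.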
